A study of Homo sapiens with 12 samples.

Results

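The proteasome genes described here are the constitutive subunits of the proteasome and the chaperones and regulators that carry its symbols. They are the rows whose symbol is PSMA, PSMB, PSMC, PSMD, PSME, PSMF or PSMG with a number, plus POMP, without the immunoproteasome subunits PSMB8, PSMB9 and PSMB10 and the interferon-inducible activators PSME1 and PSME2. The rule used symbols only and found 44 of the 29607 genes of the table: 8 core alpha genes (PSMA), 8 core beta genes (PSMB), 6 ATPase genes (PSMC), 14 genes of the lid and base (PSMD) and 8 others (PSME3, PSME4, PSMF1, the PSMG chaperones and POMP). Of these, 42 had at least 1 TPM in at least 2 libraries and were tested. The 2 that were not are PSMB11, the thymic beta subunit, listed at 0 in every library, and PSMA8, the testis alpha subunit, at 0.0459 to 0.294 TPM.

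RNA came from KMS11, an established human multiple myeloma line, in 12 poly(A)-selected libraries, 2 for each of 6 groups. The sh1 and sh2 groups held different hairpins against STK17B and no treatment. The inhibitor group was labelled wild type and received an STK17B inhibitor, while the design text of the study places the inhibitor on control-hairpin cells and also names a vehicle. Whether the inhibitor and shControl cells differ by a hairpin is therefore not settled. The group set against these 3 held a control hairpin (shControl), with wild type and no treatment as its labels. Untreated cells with an STK17B cDNA (overexpression) were set against untreated cells with an empty vector (Vector). The inhibitor is not named in the labels, its dose and time are not given, and no library is labelled as vehicle, so the inhibitor libraries were compared with shControl; an effect of the solvent cannot be told apart from one of the inhibitor. The labels do not say whether the 2 replicates were grown apart or how many clones the transduced lines hold, so p-values measure the spread between these libraries, which may be technical.

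Values were TPM as the authors deposited them, a level per transcript length that sums to the same total in each library, so sequencing depth cannot be read from them. No group name heads the columns of the controls, and their assignment to shControl and Vector rests on library numbers. Results of the members that turn on it are also given with the control columns exchanged, which was decided after values had been seen. STK17B was at 12.7 and 11.0 TPM with sh1, 14.7 and 14.5 TPM with sh2, 25.0 and 22.4 TPM with the inhibitor and 27.1 and 27.4 TPM in shControl. It was at 94.1 and 84.5 TPM with overexpression, against 28.2 and 31.5 TPM in Vector. The targeted gene was thus lower in each hairpin library and higher in each overexpression library than in its controls. All 9 markers of plasma cells and myeloma reached 1 TPM in at least 2 libraries, at a summed 4800 to 7470 TPM per library. CD38 did so only with the inhibitor, at 1.24 and 1.47 TPM, and was at 0.127 to 0.647 TPM in the other groups. Most of the sum was JCHAIN, listed as IGJ, at 3239 to 5532 TPM. The 6 markers of T and NK cells summed to 3.63 to 8.1 TPM and 5 of myeloid cells to 0.786 to 2.36 TPM. A further 6, of stromal and epithelial cells, summed to 9.78 to 16.8 TPM. In bulk RNA, fewer cells with a transcript and less of it per cell cannot be told apart.

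The proteasome degrades proteins tagged with ubiquitin. Its core is a stack of rings, in which outer rings of alpha subunits gate access and inner rings of beta subunits hold the proteolytic sites. A cap of ATPases, other base subunits and a lid binds the ubiquitin tag, removes it and unfolds the substrate, and dedicated chaperones that are not part of the finished particle assemble the core and the base. Plasma cells and myeloma cells make large amounts of immunoglobulin and depend on the proteasome, whose chymotrypsin-like subunit PSMB5 is the main target of bortezomib and carfilzomib, drugs used in myeloma. Proteasome genes are known to be induced together by NFE2L1 through antioxidant response elements when proteasome activity is low.

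Windows of 250 bases before the transcription start were read from RefSeq (GRCh38.p14) for 38 of the 44 genes, and 4 are shown, for genes named in the results below. PSMB5 had the largest increase with the hairpins, PSMB3 and PSMA3 were among the lowest with overexpression, and PSMD10 was the only member called higher with overexpression. Capitals mark matches, on either strand, to TGANNNNGC (the antioxidant response core), CCAAT (the NF-Y box) and CACGTG (the E-box); the last base of the window lies next to the start. The windows lie at chr14:23035221-23035470 (minus strand) for PSMB5, the outer of its 2 listed starts, chr17:38752491-38752740 (plus strand) for PSMB3, chr14:58244593-58244842 (plus strand) for PSMA3 and chrX:108091543-108091792 (minus strand) for PSMD10.
PSMB5: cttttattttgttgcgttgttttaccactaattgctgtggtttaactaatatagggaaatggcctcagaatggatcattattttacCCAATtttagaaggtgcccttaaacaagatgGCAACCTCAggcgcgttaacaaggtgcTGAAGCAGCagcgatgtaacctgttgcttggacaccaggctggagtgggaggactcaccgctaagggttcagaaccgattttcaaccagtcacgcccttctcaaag
PSMB3: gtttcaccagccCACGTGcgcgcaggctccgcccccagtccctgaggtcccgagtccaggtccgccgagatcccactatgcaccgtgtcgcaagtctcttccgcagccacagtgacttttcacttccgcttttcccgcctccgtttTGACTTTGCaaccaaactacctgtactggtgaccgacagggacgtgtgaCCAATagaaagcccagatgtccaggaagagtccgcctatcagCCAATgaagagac
PSMA3: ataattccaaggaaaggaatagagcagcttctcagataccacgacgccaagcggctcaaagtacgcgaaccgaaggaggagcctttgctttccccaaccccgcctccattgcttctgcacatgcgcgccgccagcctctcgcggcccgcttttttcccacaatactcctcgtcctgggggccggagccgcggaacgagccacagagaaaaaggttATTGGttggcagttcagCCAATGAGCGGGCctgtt
PSMD10: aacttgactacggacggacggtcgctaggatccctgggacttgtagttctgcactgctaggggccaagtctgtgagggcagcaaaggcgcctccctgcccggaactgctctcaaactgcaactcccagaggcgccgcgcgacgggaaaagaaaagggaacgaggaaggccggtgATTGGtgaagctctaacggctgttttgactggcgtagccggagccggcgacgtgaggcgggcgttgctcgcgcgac
PSMB5 held 2 matches to the antioxidant response core, with first bases at -133 and -106 from the start, and 1 CCAAT at -164. PSMB3 held 1 antioxidant response core at -104, CCAAT at -55 and -13, and an E-box at -238. In PSMA3 the antioxidant response core at -14 shares a base with the CCAAT at -18, and a further CCAAT lay at -35 on the other strand. PSMD10 held only a CCAAT, at -76 on the other strand. The antioxidant response core was present for 21 of 38 members (55.3%), against 40.3% of 27305 genes with a window of the same length. CCAAT was present for 18 members (47.4%), against 37.0% of those genes, and CCGGAAG (the ETS site), none of which fell in the 4 windows shown, for 12 members (31.6%), against 10.2%. The E-box was present for 3 members (7.89%), against 7.73%. Matches are letters and not sites of binding.

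The 44 genes lie on 18 chromosomes in GENCODE 29 (GRCh38). PSMB5 lies at chr14:23016543-23035230 on the minus strand, PSMB6 at chr17:4796144-4798503 on the plus strand, PSMD2 at chr3:184298709-184309054 on the plus strand and PSMD10 at chrX:108084207-108091618 on the minus strand. For 9 members the annotation names 28 pseudogenes, none of them a row of the table, so reads from a copy could have been counted to its parent. PSMD10 has 3 of these, PSMB3 and PSMD7 have 1 each, and PSMB5, PSMB6 and PSMD2 have 0.

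Levels differed widely between subunits that the particle holds in equal number. By the mean over the 12 libraries, the 7 tested alpha genes spanned 50.5 TPM for PSMA5 to 780.7 TPM for PSMA7, and the 7 beta genes 78.3 TPM for PSMB2 to 1920 TPM for PSMB4, a 24.5-fold spread. The 6 ATPase genes lay closer together, from 53.3 TPM for PSMC6 to 237 TPM for PSMC5, a 4.45-fold spread. Among the PSMD genes PSMD4, a ubiquitin receptor of the base, was highest at 833.6 TPM and PSMD5, a base chaperone, lowest at 15.0 TPM. Differences between groups were smaller: between the highest and the lowest group mean, on the log2(TPM + 1) scale of the tests, the largest was the 1.77-fold of PSMB5 with sh1 over overexpression, followed by the 1.69-fold of PSMC3 with the inhibitor over overexpression.

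**Figure D1:**
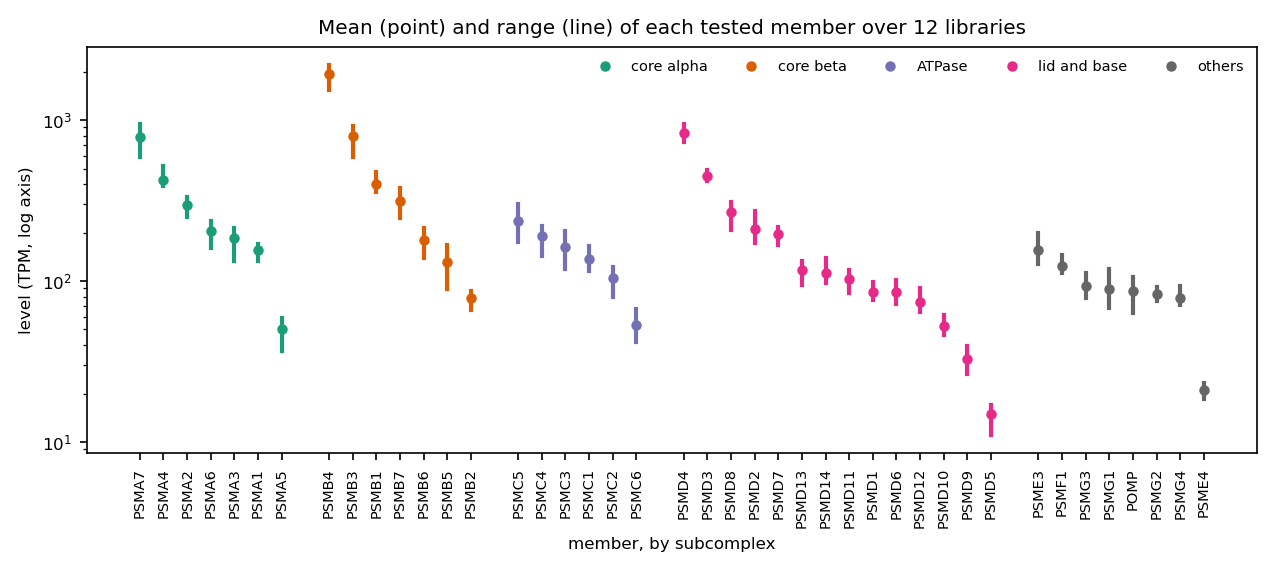
Level of each of the 42 tested members in TPM on a log axis, grouped by subcomplex; points are means over 12 libraries and lines run from the lowest to the highest library. PSMB4 stands highest (mean 1920 TPM) and PSMD5 lowest (15.0 TPM), and the ATPase genes span the narrowest range.

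Summed over all members, proteasome transcripts were most abundant with the inhibitor and least abundant with overexpression. The sum was 10421 ± 44.4 TPM with sh1, 10455 ± 48.8 TPM with sh2, 11492 ± 33.6 TPM with the inhibitor and 10634 ± 143 TPM in shControl (SD, n = 2 each). It was 8516 ± 10 TPM with overexpression, against 9466 ± 101 TPM in Vector (SD, n = 2 each). These sums are 0.852% to 1.15% of all transcripts. The sh1 and sh2 sums overlapped each other, and no other groups overlapped. The mean was highest with the inhibitor for 30 of the 42 members and lowest with overexpression for 32. The same counts were not made over all tested genes, so these have no background.

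**Figure D2:**
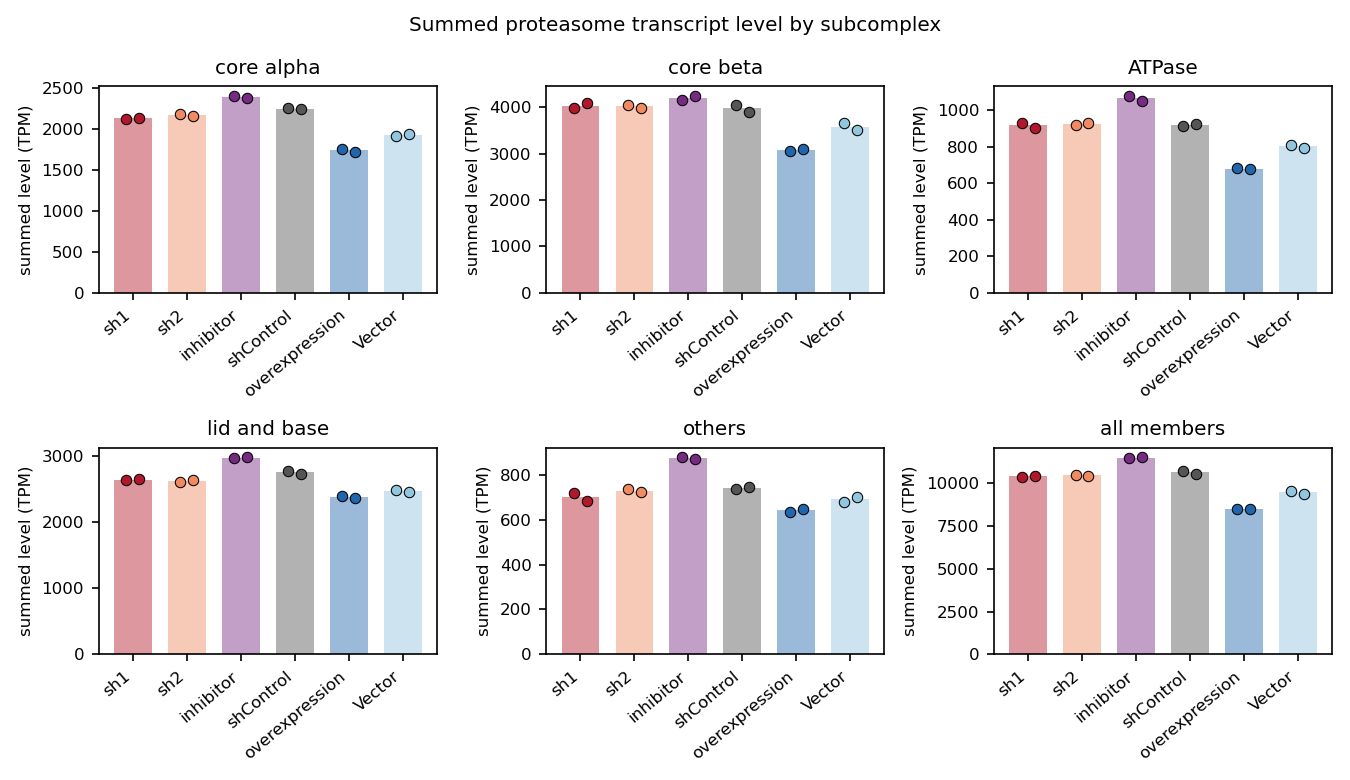
Summed TPM of the members of each subcomplex and of all members in each group; bars are means and points the 2 libraries. The inhibitor bars are the highest and the overexpression bars the lowest in all 6 panels, and Vector lies below shControl in each.

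With STK17B overexpression, most proteasome transcripts were lower. By limma, with Benjamini-Hochberg adjustment over 12731 genes, 25 of 42 members were lower than in Vector at an adjusted p below 0.05 and 1 was higher, against a background of 10.3% of all tested genes lower and 26.6% higher. The median log2 change of the members was -0.17, against 0.08 for all tested genes, and 40 of 42 members lay below that all-gene median. The decrease held 6 of 7 alpha genes, 6 of 7 beta genes and 5 of 6 ATPase genes, but 5 of 14 PSMD genes and 3 of 8 others. The 5 PSMD genes were all among the 8 lid genes. The lid median was -0.18, against -0.20 for alpha and -0.20 for beta genes. After median-of-ratios scaling 35 members were lower and 0 higher, with 19.8% of all tested genes lower and 16.2% higher. Most PSMD and other genes were then lower too, so the split by subcomplex depended on the scaling. Of the 26 calls, 19 stayed past the threshold under every alternative, among them PSMA5, PSMB3, PSMA3, PSMC5, PSMB5, PSMB6 and PSMB7.

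By the column assignment used here, Vector cells also had lower proteasome transcripts than shControl cells, with no STK17B construct in either. The direction rests on that inferred assignment. With the control columns exchanged, every change in this comparison keeps its size and takes the opposite sign. In this comparison of the 2 controls 24 members were lower and 1 was higher (PSME4), against 7.86% of all tested genes lower and 21.4% higher. The median log2 change was -0.16, against 0.09 for all tested genes. The lower members were 5 alpha, 6 beta, 3 ATPase, 7 PSMD and 3 other genes. PSMA7 (log2 change -0.41, SE 0.03, adjusted p = 2.9e-05), PSMC3 (-0.37, SE 0.04, adjusted p = 0.00026) and PSMB6 (-0.32, SE 0.04, adjusted p = 0.00033) were lowest. The median was close to the -0.17 of overexpression, a comparison that shares the Vector libraries. The PSME4 call and some of the lower calls were lost when any 1 of these libraries was left out, where fewer of all tested genes were called too.

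With the inhibitor, 23 members were higher than in shControl and 0 lower, with 28.0% of all tested genes higher and 11.8% lower, but this excess depended on the scaling. With a filter at 5 TPM the member counts were the same, and 35.7% of all tested genes were higher and 13.3% lower. At an unadjusted p below 0.05, limma gave 26 members higher and 0 lower. The share of all tested genes at that threshold was not computed. The median log2 change was 0.12, against 0.08 for all tested genes, and the higher members were 6 of 6 ATPase, 7 of 8 other, 6 of 14 PSMD, 2 of 7 alpha and 2 of 7 beta genes. After median-of-ratios scaling 9 members were higher and 1 lower, with 18.4% of all tested genes higher and 16.4% lower, and after quantile normalization 10 were higher and 3 lower, with 16.5% and 15.3%, so the higher members were near the background under both. Fewer members were called higher when any 1 inhibitor or shControl library was left out, and so were fewer of all tested genes. With the control columns exchanged, 38 members were higher, with 26.0% of all tested genes higher and 27.0% lower. The members called under every alternative were PSMA4, PSMC1, PSMC5, PSMD9, PSME3 and PSMG1.

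The hairpins changed members in both directions. For the mean of both hairpins against shControl, 5 members were higher and 17 lower, against 26.2% of all tested genes higher and 20.2% lower, and the median log2 change was -0.06, against 0.03 for all tested genes. Taken alone, sh1 gave 3 higher and 17 lower (background 23.7% and 21.3%) and sh2 gave 5 higher and 12 lower (background 22.0% and 13.4%). The direction of most of these calls depended on which control was used: with the control columns exchanged, 19 members were higher and 5 lower, with 18.6% of all tested genes higher and 29.4% lower. The calls that held under every alternative, the exchange included, were 5 of 22, the higher PSMB4 and PSMB5 and the lower PSMD2, PSMD5 and PSMD7. Fewer members were called in both directions without shControl replicate 1, and fewer were called higher without sh1 replicate 1 or sh2 replicate 2. Fewer of all tested genes were called in the same directions in those runs. For sh2 alone, fewer members and fewer of all tested genes were called in both directions when either sh2 library or either shControl library was left out. For sh1 alone, more members were called higher without sh1 replicate 2, though fewer of all tested genes were.

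**Figure D3:**
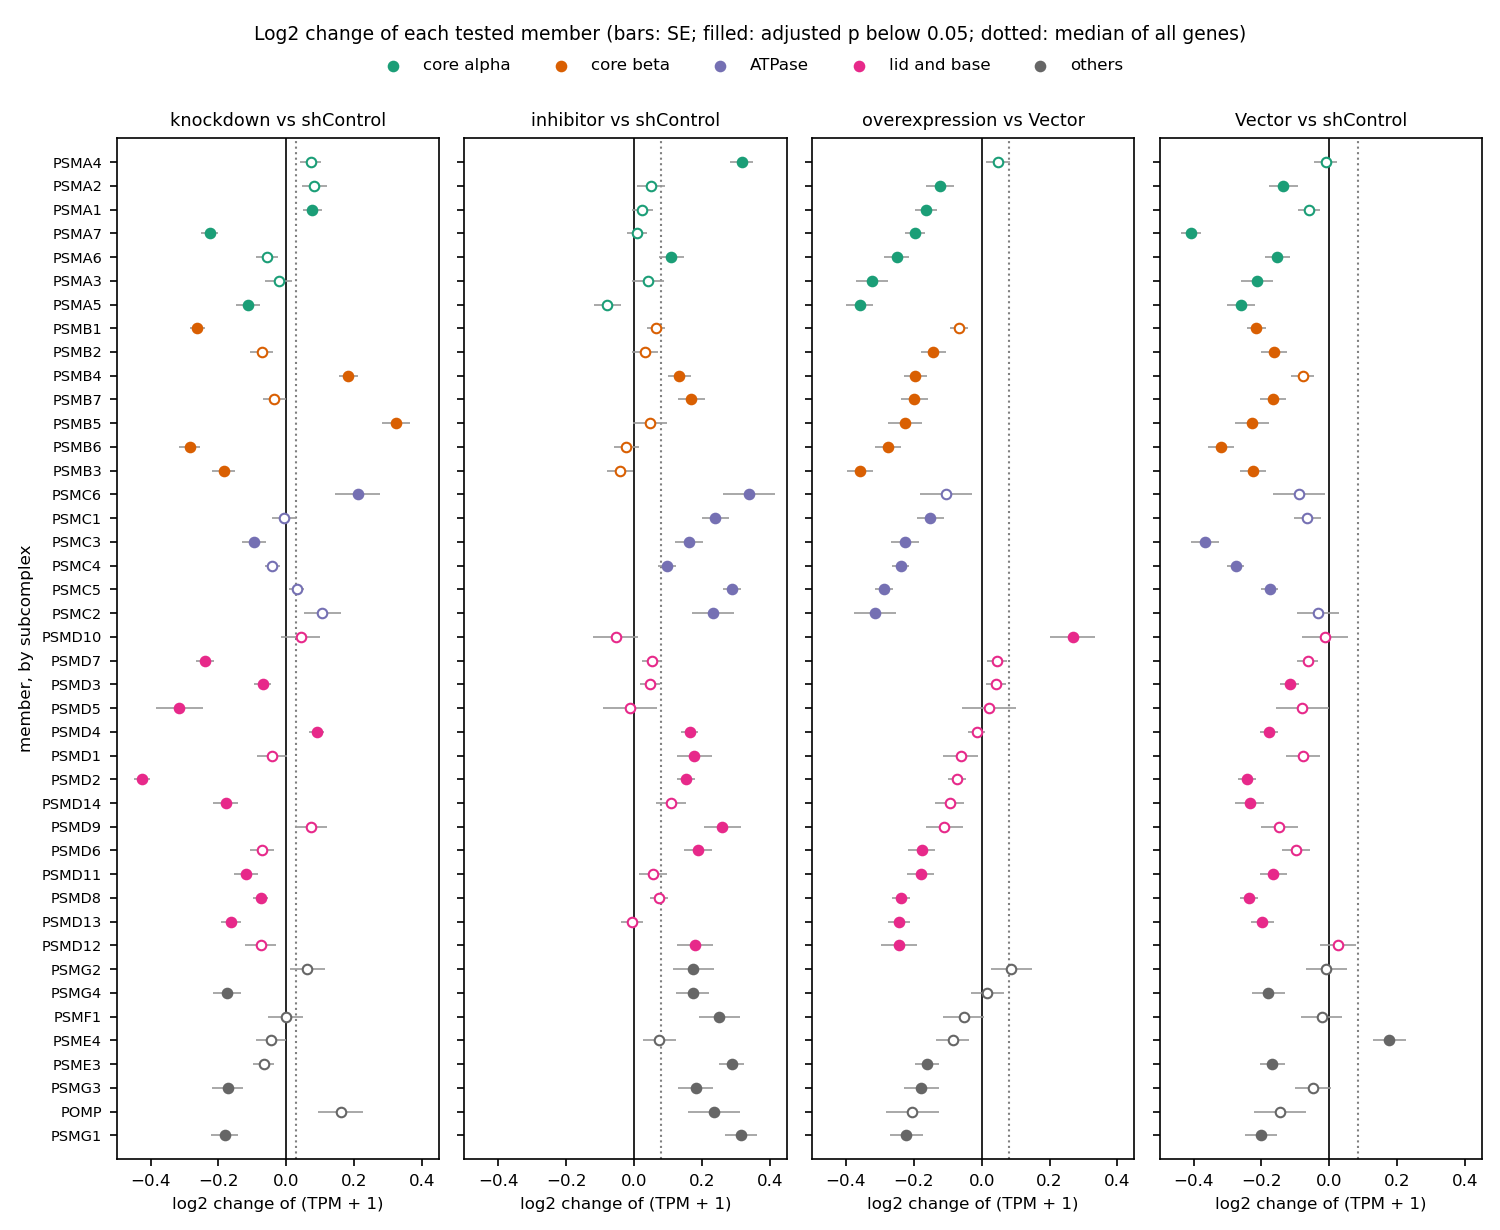
Log2 change of (TPM + 1) of each tested member in 4 comparisons, with SE as bars; filled points had an adjusted p below 0.05 and the dotted line is the median of all tested genes. Overexpression and Vector have most points left of 0, the inhibitor has none called there, and the knockdown has called points on both sides, with PSMB5 at 0.32 and PSMD2 at -0.43.

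Among the alpha subunits, PSMA5 fell most with overexpression. It was at 37.7 and 36.5 TPM with overexpression, against 47.1 and 48.6 TPM in Vector, and at 52.6 and 52.9 TPM with sh1, 52.2 and 54.5 TPM with sh2, 55.6 and 53.2 TPM with the inhibitor and 58.7 and 56.3 TPM in shControl. Both overexpression libraries were below every other library, and the log2 change was -0.36 (SE 0.04, adjusted p = 0.00015). PSMA3 fell likewise, to 142.2 and 133 TPM with overexpression, against 176.9 and 167.7 TPM in Vector. Its log2 change by limma was -0.32 (SE 0.05, adjusted p = 0.00073).

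PSMA4 departed from this pattern. It was the alpha gene not lower with overexpression, at 413.9 and 411.3 TPM against 390.5 and 407.2 TPM in Vector (log2 change 0.05, SE 0.04, adjusted p = 0.31). In the inhibitor libraries it was at 519 and 482.5 TPM, against 406 and 397.4 TPM in shControl, a log2 change of 0.32 (SE 0.04, adjusted p = 0.00015) with no overlap. PSMA7, the most abundant alpha gene, was at 894.6 and 944 TPM with the inhibitor, which enclosed both shControl libraries at 919 and 908 TPM. It fell with overexpression, to 608.6 and 593 TPM, against 690.5 and 686 TPM in Vector (log2 change -0.20, SE 0.03, adjusted p = 0.00084).

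The 3 catalytic beta subunits did not move together with the hairpins. PSMB5, the chymotrypsin-like subunit, was at 167 and 164 TPM with sh1, 157 and 154 TPM with sh2, 128.5 and 136.5 TPM with the inhibitor and 131 and 125 TPM in shControl. It was at 97.1 and 89.6 TPM with overexpression, against 112.5 and 106 TPM in Vector. All 4 hairpin libraries were above all other libraries, and both overexpression libraries below all others. The log2 change was 0.32 in the knockdown (SE 0.04, adjusted p = 0.00024), 0.05 with the inhibitor (SE 0.05, adjusted p = 0.48) and -0.23 with overexpression (SE 0.05, adjusted p = 0.0059).

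PSMB6, the caspase-like subunit, went the other way in the hairpin cells. It was at 163 and 168 TPM with sh1, 179.6 and 186 TPM with sh2, 212 and 205 TPM with the inhibitor and 213.8 and 210.3 TPM in shControl, with a knockdown log2 change of -0.29 (SE 0.03, adjusted p = 9.3e-05). Overexpression put it at 141.7 and 138.5 TPM, against 175 and 164.5 TPM in Vector (log2 change -0.28, SE 0.04, adjusted p = 0.00045). Against Vector in place of shControl, the knockdown change of PSMB6 was 0.03, so its decrease with the hairpins rests on the control. PSMB7, the trypsin-like subunit, fell with overexpression (log2 change -0.20, SE 0.04, adjusted p = 0.0039), while its knockdown change was -0.04 (SE 0.03, adjusted p = 0.42). PSMB7 was higher with the inhibitor (0.17, SE 0.04, adjusted p = 0.0079). That call was lost after median-of-ratios scaling, after quantile normalization and without inhibitor replicate 2, where the change was 0.13.

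A ratio of levels within a library does not depend on scale or on which column is which control. PSMB5 over PSMB6 was 1.03 and 0.978 with sh1, 0.876 and 0.826 with sh2, 0.606 and 0.665 with the inhibitor and 0.614 and 0.595 in shControl. With overexpression it was 0.686 and 0.647, against 0.642 and 0.645 in Vector. The 4 hairpin libraries stood above the other 8, which lay between 0.595 and 0.686. PSMB5 over PSMB7 separated the same libraries, at 0.474 to 0.539 in the hairpin libraries and 0.356 to 0.397 in the other 8.

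Of the structural beta subunits, PSMB3 fell most with overexpression and PSMB4 rose with the hairpins. PSMB3 was at 589.8 and 615.5 TPM with overexpression, against 796 and 750.1 TPM in Vector, a log2 change of -0.36 (SE 0.04, adjusted p = 0.00014). PSMB4, the most abundant member, was at 2136 and 2184 TPM with sh1 and 2122 and 2073 TPM with sh2, against 1927 and 1825 TPM in shControl (log2 change 0.18, SE 0.03, adjusted p = 0.00081). It was at 2025 and 2092 TPM with the inhibitor, and at 1534 and 1571 TPM with overexpression, against 1816 and 1738 TPM in Vector. PSMB1 was lower in the knockdown (log2 change -0.26, SE 0.02, adjusted p = 2e-05), a call lost with the control columns exchanged, where the change was -0.05. With overexpression PSMB1 changed by -0.07 (SE 0.03, adjusted p = 0.08), and PSMB1 was the beta gene not called there.

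All 6 ATPases, the motor that threads the substrate into the core, were called higher with the inhibitor, at log2 changes of 0.10 to 0.34. Without inhibitor replicate 1 or shControl replicate 1, 2 of the 6 were called, PSMC1 and PSMC5, and PSMC2, PSMC3, PSMC4 and PSMC6 were not. PSMC5 was at 299 and 293.8 TPM with the inhibitor, against 243 and 241.5 TPM in shControl (log2 change 0.29, SE 0.03, adjusted p = 4.5e-05). The hairpin libraries were close to shControl, at 247.9 and 245 TPM with sh1 and 245.6 and 251.6 TPM with sh2. PSMC5 was at 174 and 176.6 TPM with overexpression, against 217 and 211 TPM in Vector (log2 change -0.29, SE 0.03, adjusted p = 5e-05).

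PSMC6 had the largest inhibitor change of all members, 0.34 (SE 0.08, adjusted p = 0.0067), from 66.6 and 60.3 TPM with the inhibitor against 47.8 and 52.0 TPM in shControl. The call was lost without inhibitor replicate 1 (log2 change 0.27, adjusted p = 0.055) or shControl replicate 1 (0.28, adjusted p = 0.054). In the knockdown PSMC6 was higher by 0.21 (SE 0.07, adjusted p = 0.027), though its 4 hairpin libraries, at 51.8 to 61.7 TPM, overlapped shControl. That call was lost without shControl replicate 1, where the change was 0.15 (adjusted p = 0.21), without sh1 replicate 1 (0.16, adjusted p = 0.059) and without sh2 replicate 2 (0.19, adjusted p = 0.071). The other 5 ATPase genes were lower with overexpression, at -0.15 for PSMC1 to -0.31 for PSMC2. After median-of-ratios or quantile scaling, PSMC2, PSMC3 and PSMC4 were no longer called with the inhibitor.

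The PSMD genes hold the non-ATPase base subunits, the lid and the base chaperones, and 8 of 14 were lower in the knockdown with 1 higher, or 5 lower without sh2 replicate 1 or either shControl library. PSMD2, the base subunit on which shuttle proteins dock, had the largest change. It was at 175.5 and 172 TPM with sh1, 186.7 and 184 TPM with sh2, 263 and 273.8 TPM with the inhibitor and 241.9 and 240.9 TPM in shControl. With overexpression it was at 194.6 and 193 TPM, against 204.9 and 202.7 TPM in Vector. The hairpin libraries were the lowest 4 of the 12, at a knockdown log2 change of -0.43 (SE 0.02, adjusted p = 1.4e-06), and with the control columns exchanged the change was -0.18 and stayed called. PSMD2 over PSMD1, a ratio of 2 base subunits, was 2.04 to 2.22 in the hairpin libraries and 2.37 to 2.84 in the other 8.

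PSMD4 and PSMD1, the other non-ATPase base subunits with PSMD symbols, were not called lower with the hairpins. ADRM1, a further base subunit, lies outside the rule and is given below. PSMD4 was at 896 and 922 TPM with sh1 and 858.5 and 866 TPM with sh2, against 849 and 816 TPM in shControl (log2 change 0.09, SE 0.02, adjusted p = 0.01). That call was lost after median-of-ratios scaling and without shControl replicate 2 (log2 change 0.06 in each), and with eBayes without the trend. PSMD4 was at 923 and 942 TPM with the inhibitor (log2 change 0.16, SE 0.03, adjusted p = 0.0011), a call lost after median-of-ratios scaling. It was at 730.6 and 727 TPM with overexpression, against 742 and 730.4 TPM in Vector (log2 change -0.015, SE 0.03, adjusted p = 0.7). With overexpression none of PSMD1, PSMD2 and PSMD4 was called, though all were lower after median-of-ratios scaling.

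In the lid, 6 of 8 genes were lower in the knockdown and the other 2, PSMD6 and PSMD12, had changes of -0.07 and -0.08. Without sh2 replicate 1 or either shControl library 3 of 8 were lower, PSMD7, PSMD13 and PSMD14. PSMD7, the partner of the lid deubiquitinase PSMD14, was at 172 and 167.9 TPM with sh1 and 181.5 and 181 TPM with sh2, against 210.9 and 204 TPM in shControl (log2 change -0.24, SE 0.03, adjusted p = 7.6e-05). PSMD14 itself changed by -0.18 (SE 0.04, adjusted p = 0.0034) with shControl as the control, and by 0.06 with Vector in its place. Of the 6 calls, that of PSMD7 alone held with the control columns exchanged. With overexpression 5 lid genes were lower, at -0.18 to -0.24 (3 without Vector replicate 1), while PSMD7 was at 209.6 and 200.4 TPM, against 197 and 199.9 TPM in Vector (log2 change 0.05, SE 0.03, adjusted p = 0.26). PSMD6 (0.19) and PSMD12 (0.18) were the lid genes called higher with the inhibitor. The PSMD12 call was lost without inhibitor replicate 1 (0.09, adjusted p = 0.15) or shControl replicate 2 (0.14, adjusted p = 0.14), after median-of-ratios (0.10) and quantile scaling (0.06), and when only these groups were fitted (0.18, adjusted p = 0.12), and that of PSMD6 after quantile scaling (0.06).

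The 3 base chaperones each behaved differently. PSMD5, the least abundant tested member, was at 13.3 and 11.1 TPM with sh1 and 13.9 and 13.8 TPM with sh2, against 16.2 and 16.6 TPM in shControl (log2 change -0.32, SE 0.07, adjusted p = 0.0045). PSMD9 was at 39.1 and 39.3 TPM with the inhibitor, against 31.7 and 33.4 TPM in shControl (log2 change 0.26, SE 0.05, adjusted p = 0.0046); its exons overlap those of WDR66 on the same strand, so reads of both genes could be mixed. PSMD10, also called gankyrin, was at 61.3 and 60.4 TPM with overexpression, against 50.7 and 50.0 TPM in Vector, and at 46.5 to 55.2 TPM in the hairpin, inhibitor and shControl libraries. Both overexpression libraries were above the other 10, at a log2 change of 0.27 (SE 0.07, adjusted p = 0.012). The PSMD10 call was lost after median-of-ratios scaling (0.17, adjusted p = 0.11) and quantile normalization (0.20, adjusted p = 0.053), without overexpression replicate 1 (0.26, adjusted p = 0.059) and without Vector replicate 2 (0.26, adjusted p = 0.055).

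The core chaperones, PSMG1 to PSMG4 and POMP, were all called higher with the inhibitor, at 0.17 to 0.32, but PSMG1 alone kept its call under every alternative. After median-of-ratios or quantile scaling 1 of the 5 was called, and without any 1 inhibitor or shControl library 2 of the 5, PSMG1 and 1 other. PSMG1, which with PSMG2 places the alpha subunits, was at 117.8 and 118.7 TPM with the inhibitor, against 94.95 and 94.66 TPM in shControl (log2 change 0.32, SE 0.05, adjusted p = 0.00082). It was at 84.4 and 78.0 TPM with sh1, 84.6 and 87.0 TPM with sh2, and 72.7 and 68.3 TPM with overexpression, against 79.8 and 85.1 TPM in Vector. POMP, which matures the beta subunits, was at 106.3 and 94.7 TPM with the inhibitor, against 83.5 and 86.8 TPM in shControl (log2 change 0.24, SE 0.08, adjusted p = 0.036). The POMP call was lost without inhibitor replicate 1 (0.15, adjusted p = 0.23), without shControl replicate 1 (0.21, adjusted p = 0.16) or 2 (0.26, adjusted p = 0.078), and under both other scalings (0.16 and 0.12). In the knockdown POMP changed by 0.16 (SE 0.07, adjusted p = 0.077), and it was called higher when only these groups were fitted (0.16, adjusted p = 0.044) and with the control columns exchanged (0.31, adjusted p = 0.0043). With overexpression it changed by -0.20 (SE 0.08, adjusted p = 0.064), and it was called lower after median-of-ratios scaling (-0.31, adjusted p = 0.012), quantile normalization (-0.27, adjusted p = 0.022) and exchange of the control columns (-0.35, adjusted p = 0.0035), and without Vector replicate 2 (-0.29, adjusted p = 0.04).

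Of the activators and the inhibitor of the core, PSME3, the nuclear PA28 gamma, was at 199 and 192.7 TPM with the inhibitor, against 160.6 and 159.9 TPM in shControl (log2 change 0.29, SE 0.04, adjusted p = 3e-04). It fell to 127 and 127 TPM with overexpression, against 140.5 and 144 TPM in Vector (log2 change -0.16, SE 0.04, adjusted p = 0.0071). PSMF1, a proteasome inhibitor protein, was higher with the inhibitor (0.25, SE 0.06, adjusted p = 0.0093). The PSMF1 call was lost after quantile normalization, without inhibitor replicate 2 (0.23) and without shControl replicate 1 (0.22). PSME4, the activator PA200, was the 1 member higher in Vector than in shControl, at 23.2 and 23.0 TPM against 20.3 and 20.3 TPM (log2 change 0.18, SE 0.05, adjusted p = 0.024). That call was lost when any 1 of the 4 libraries was left out (0.17 to 0.18, adjusted p = 0.089 to 0.1).

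**Figure D4:**
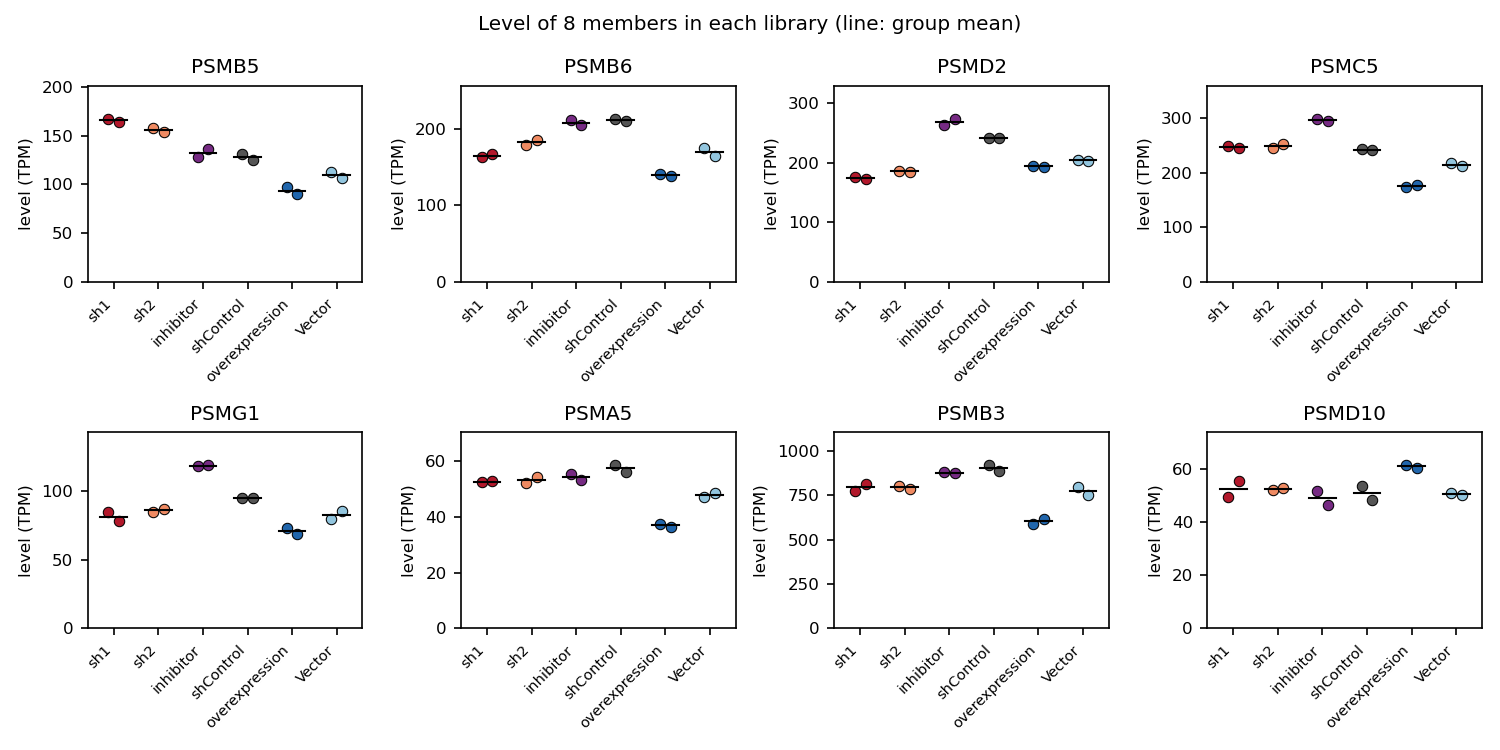
TPM of 8 members in each library, with lines at group means; each axis starts at 0. PSMB5 is highest with sh1 and sh2 (154 to 167 TPM), where PSMD2 is lowest. PSMB6 in the hairpin libraries is below shControl but overlaps Vector. PSMC5 and PSMG1 are highest with the inhibitor, PSMA5, PSMB3 and PSMB6 are lowest with overexpression, and PSMD10 is highest with overexpression (61.3 and 60.4 TPM).

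Between sh2 and sh1, 0 members were called in either direction by limma (background 1.16% higher and 0.385% lower), and eBayes without the trend also called 0. At an unadjusted p below 0.05, 6 members were higher and 2 lower in sh2, without a share of all tested genes to set beside them. Log2 changes of the members ran from -0.13 to 0.17. PSMB5 changed by -0.09 (SE 0.05, adjusted p = 0.37).

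The inhibitor and the knockdown differed for most members. Against the mean of the hairpins, 31 members were higher with the inhibitor and 1, PSMB5, was lower (log2 change -0.28, SE 0.04, adjusted p = 0.00046), with 30.9% of all tested genes higher and 21.6% lower. No control library enters this comparison. The largest differences were in PSMD2 (0.58, SE 0.02, adjusted p = 1.7e-07), PSMG1 (0.50, SE 0.04, adjusted p = 9.7e-06) and PSMG3 (0.36, SE 0.05, adjusted p = 0.00014). All 8 lid genes and 13 of 14 PSMD genes were higher with the inhibitor, the exception being PSMD10, while 3 of 7 alpha genes were. After quantile normalization 4 of 8 lid genes and 8 of 14 PSMD genes were higher. Of the 32 calls, 21 held under every alternative.

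The knockdown and the overexpression have no library in common. Of 42 members, 10 were lower in both (23.8%, against 5.1% of all tested genes), 3 were higher in the knockdown and lower with overexpression (PSMA1, PSMB4 and PSMB5, 7.14%, against 1.44%), and 0 were lower in the knockdown and higher with overexpression (against 3.76%). Many members were lower in each comparison taken alone, 17 in the knockdown and 25 with overexpression. That alone raises the share lower in both, so these shares are no test of whether the 2 changes go together. With the control columns exchanged, 2 were lower in both, PSMD2 and PSMG3 (against 3.7% of all tested genes), and 18 were higher in the knockdown and lower with overexpression (against 4.17%). The knockdown call of PSMA1 (0.08) was lost in 10 of 16 alternatives, among them the omission of shControl replicate 1 (0.05, adjusted p = 0.36) or of any 1 hairpin library. A further 12 were called lower with overexpression and not in the knockdown, and 7 the other way, which is no test of a difference. Tested directly, the knockdown effect minus the overexpression effect was positive for 16 members and negative for 5, against 11.4% and 18.5% of all tested genes, with a median of 0.10 against -0.05. The 16 were 5 alpha, 4 beta, 4 ATPase, 2 PSMD and 1 other gene. PSMB5 had the largest difference (0.55, SE 0.07, adjusted p = 0.00027), followed by PSMC2 (0.42, SE 0.08, adjusted p = 0.0045) and PSMB4 (0.38, SE 0.05, adjusted p = 0.00028). The most negative were PSMD2 (-0.35, SE 0.04, adjusted p = 0.00011), PSMD5 (-0.34, SE 0.11, adjusted p = 0.037) and PSMD7 (-0.29, SE 0.04, adjusted p = 0.00073). With the control columns exchanged, 33 were positive and 2 negative, PSMD2 turned to 0.13 and PSMD5 lost its call (-0.18, adjusted p = 0.16). The PSMD5 call was also lost when either sh2, shControl or overexpression library or Vector replicate 1 was left out (-0.29 to -0.36, adjusted p = 0.063 to 0.12). Fewer members were called in both directions without overexpression replicate 2, and fewer were negative without overexpression replicate 1 or sh2 replicate 2. Fewer of all tested genes were called in the same directions in those runs.

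**Figure D5:**
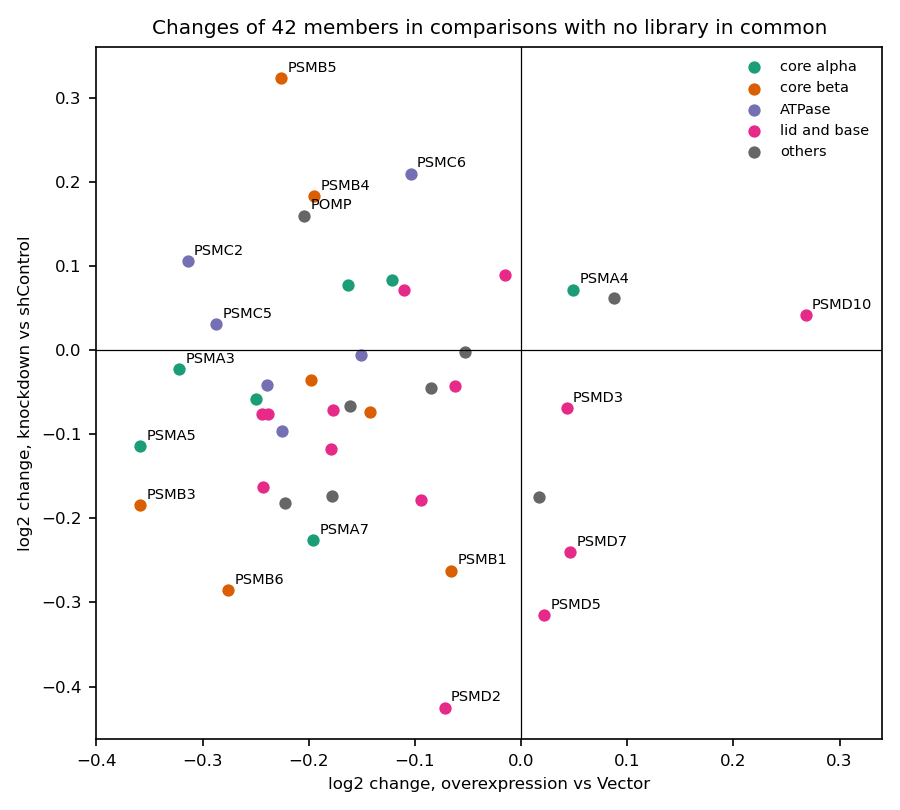
Log2 change of (TPM + 1) of each of 42 members with overexpression (x axis) and in the knockdown (y axis), colored by subcomplex. Most members lie left of 0 on the x axis; PSMB5 is at -0.23 and 0.32, PSMD2 at -0.07 and -0.43, and PSMD10 at 0.27 and 0.04.

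Across the 12 libraries most members rose and fell together on the log2 scale. The median Pearson r over 861 pairs of members was 0.70, with 757 pairs positive, and it was 0.72 within a subcomplex and 0.70 between subcomplexes. The libraries share 6 groups and a common scale, so these are descriptions. Set against the mean of the other members, PSMC3 (r = 0.98), PSMB7, PSMC5 and PSME3 (r = 0.97 each) followed it most closely. PSMD10 (r = -0.75) and PSME4 (r = -0.27) ran against it, and PSMD5 (r = 0.08) and PSMD7 (r = 0.14) were nearly unrelated to it.

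Partners of the proteasome outside the rule moved in part as the members did. Of 10 tested subunits and partners with other symbols, 9 were higher with the inhibitor. With overexpression 4 were lower and 1 higher, and in the knockdown 5 were lower and 2 higher. Among all tested genes, 28.0% were higher and 11.8% lower with the inhibitor, and 26.6% and 10.3% with overexpression. In the knockdown these shares were 26.2% and 20.2%. Genes of this and the following lists were not recomputed under other scalings or with the control columns exchanged. PITHD1, a thioredoxin-like proteasome-binding protein, was higher with the inhibitor by 0.52 (SE 0.04, adjusted p = 1.3e-05) and lower in the knockdown by 0.25 (log2 change -0.25, SE 0.03, adjusted p = 0.00023). UCHL5, a deubiquitinase of the base, was lower in the knockdown (-0.38, SE 0.06, adjusted p = 0.00056), as was its receptor ADRM1 (-0.21, SE 0.02, adjusted p = 9.4e-05). ADRM1 was at 343.7 and 349.8 TPM with sh1 and 359 and 372 TPM with sh2, against 413 and 411 TPM in shControl, but Vector libraries were lower still at 337.7 and 325.7 TPM. It was lower with overexpression (-0.19, SE 0.03, adjusted p = 0.00075).

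Of 13 genes of the transcriptional control of the proteasome, 4 were higher and 5 lower in the knockdown, 5 higher and 2 lower with the inhibitor, and 4 higher and 2 lower with overexpression. NFE2L1 was at 135.8 and 128 TPM with sh1, 120.1 and 117 TPM with sh2, 107 and 112.6 TPM with the inhibitor and 88.4 and 90.0 TPM in shControl. It was higher in the knockdown (log2 change 0.48, SE 0.03, adjusted p = 4.1e-06), and with the inhibitor by 0.30 (SE 0.04, adjusted p = 0.00027). With overexpression it changed by -0.05 (SE 0.04, adjusted p = 0.35), at 84.2 and 85.7 TPM against 88.3 and 87.2 TPM in Vector. MAFF, a small MAF partner of the NFE2L factors, was the most changed gene of this list with the inhibitor (-1.06, SE 0.14, adjusted p = 0.00035), at a mean of 1.11 TPM with the inhibitor against 3.40 TPM in shControl.

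Of the 5 immunoproteasome and PA28 alpha and beta genes, 0 were higher and 2 lower with the inhibitor, PSMB8 (-0.32, SE 0.07, adjusted p = 0.0058) and PSMB9 (-0.21, SE 0.07, adjusted p = 0.038). With overexpression 1 was higher and 1 lower, and in the knockdown 2 were higher and 1 lower. For this list and those that follow, the background was 28.0% of all tested genes higher and 11.8% lower with the inhibitor. It was 26.6% and 10.3% with overexpression and 26.2% and 20.2% in the knockdown. Of 12 genes that deliver substrates, 6 were higher with the inhibitor, 3 higher and 3 lower with overexpression, and 2 higher and 2 lower in the knockdown. Of 9 genes of ubiquitin and its activation, 4 were higher in the knockdown, 2 higher and 1 lower with the inhibitor, and 1 higher and 3 lower with overexpression. UBB, a polyubiquitin gene, was lower with overexpression (-0.33, SE 0.02, adjusted p = 1.4e-05).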

How the data were processed

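Poly(A) RNA of 12 KMS11 libraries was measured as 1 TPM value per gene and library, deposited by the authors in a single table; per the submitters' processing notes the tools were HISAT, Bowtie2 2.3.4.3, RSEM 1.3.1 and DESeq2 1.4.5 with GRCh38.p13, with no role given for each. Counts were not used here, so depth is unknown and no count model was fitted. The members and gene lists were chosen with earlier results of these data known. The 12731 genes that reached 1 TPM in 2 or more libraries were fitted as log2(TPM + 1), which understates changes of low genes, with limma 3.58.1 in R 4.3.3: 6 group means, eBayes with a trend, and Benjamini-Hochberg adjustment over all genes in each comparison, with calls at an adjusted p below 0.05. The knockdown is the mean of sh1 and sh2. The fit was also run on simulated data with independent noise and shifts in a small set of genes. Far more genes were called in the real data, so that run does not bear on the calls given here. With 2 libraries per group a permutation test cannot reach the threshold.

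Named members are the 3 highest and 3 lowest called in each comparison and PSMB5, PSMB6, PSMB7, PSMD4 and POMP, with up to 3 called genes of each pathway list; other members are named where a role or a call set them apart, after their values were seen. The lists held 5 immunoproteasome and PA28 genes, 11 partners with other symbols (SEM1 was not analysed here), 13 transcriptional regulators, 12 delivery genes and 9 ubiquitin genes. Results of the members, and the shares of all tested genes, were recomputed with a pseudocount of 0.1 or 0.5 and a filter at 5 TPM or none. Further alternatives were median-of-ratios scaling, quantile normalization, a fit of only the groups compared, eBayes without trend and a replicate block. The last were leaving out each library and, chosen after seeing the data, exchange of the control columns. Genes of the pathway lists were not recomputed. Motifs were searched in RefSeq windows of 250 bases.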

Additional observations from a re-analysis of the deposited data

How the results depend on the processing

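Counts of called members under pseudocounts of 0.1 and 0.5 and a filter at 5 TPM stayed within 1.5 times those reported, and none of the single-member results compared changed its call or direction there. The shares of all tested genes rose with the filter at 5 TPM. They were 29.7% higher and 24.3% lower in the knockdown, 35.7% and 13.3% with the inhibitor and 30.8% and 12.8% with overexpression. For Vector against shControl they were 24.7% and 10.7%, and for the inhibitor against the knockdown 38.5% and 23.7%. Without a filter, 3 members were higher in the knockdown and 2 with sh2, and 3 had a negative knockdown minus overexpression effect. Without the trend, 3 were higher in the knockdown and 3 with sh2. After median-of-ratios scaling, 3 were higher in the knockdown, 2 with sh2, 9 with the inhibitor (1 lower), 0 with overexpression and 0 in Vector against shControl; 2 were lower with the inhibitor than in the knockdown and 3 had a negative knockdown minus overexpression effect. After quantile normalization, 5 were higher with sh1, 10 with the inhibitor (3 lower), 0 with overexpression and 0 in Vector, and 4 were lower with the inhibitor than in the knockdown. Quantile normalization moved the median of all genes by over 0.1, to -0.02 from 0.08 for overexpression and to -0.02 from 0.09 for Vector. With the control columns exchanged, counts were 19 higher and 5 lower in the knockdown, 19 and 6 with sh1, 20 and 3 with sh2, 38 higher with the inhibitor, and 33 and 2 for the knockdown minus overexpression effect. The cause of these shifts was not tested, beyond the difference between the controls given above.

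Leaving out single libraries gave these ranges of called members: knockdown 3 to 5 higher and 11 to 17 lower, sh1 3 to 5 higher and 12 to 13 lower, sh2 2 to 4 higher and 7 to 8 lower, inhibitor 13 to 15 higher, overexpression 0 to 1 higher and 20 to 23 lower, Vector 0 to 0 higher and 17 to 19 lower, inhibitor against knockdown 28 to 33 higher and 1 lower, and knockdown minus overexpression 10 to 16 positive and 3 to 6 negative. A group left with 1 library was assumed to vary like the others. The shares of all tested genes that were called moved in these runs too, so these counts have no fixed background.

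Directions that turned were as follows. PSMB5 with the inhibitor was -0.028 by median of ratios and -0.072 by quantile. PSMD4 with overexpression was 0.025 by quantile. For the inhibitor against the knockdown, quantile gave PSMD3 -0.036, PSMD4 -0.005 and POMP -0.025, and POMP was -0.008 without inhibitor replicate 1. PSMB6 in the knockdown minus overexpression effect, near 0 as reported, was 0.06 by both scalings (0.063 and 0.060) and ran from -0.054 to 0.038 when single libraries were left out. With the control columns exchanged the knockdown changes were PSMA5 0.15, PSMA7 0.18, PSMB3 0.041, PSMB6 0.034, PSMB7 0.13, PSMC3 0.27, PSMD3 0.048, PSMD8 0.16, PSMD11 0.047, PSMD13 0.034, PSMD14 0.056, PSMG1 0.018 and PSMG4 0.006; PSMB6 with the inhibitor was 0.30; and the knockdown minus overexpression effects were PSMB1 0.23, PSMD2 0.13, PSMG4 0.17 and PSMB6 0.63.

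The replicate numbers did not pair the libraries: correlations of replicate deviations between groups ran from -0.1 to 0.14 over 15 pairs of groups, 1 of them above 0.1. With a replicate block, the counts were 5 higher and 15 lower in the knockdown, 22 higher with the inhibitor and 25 lower with overexpression. With the block POMP was called higher in the knockdown (adjusted p = 0.022) and lower with overexpression (adjusted p = 0.019).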
